A study of Mus musculus with 6 samples.

Results

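The genes examined here handle the monoamine transmitters noradrenaline, dopamine and serotonin. They were 10 genes of the 18193 that the arrays named: the plasma membrane transporter genes Slc6a2 and Slc6a4, the vesicle transporter gene Slc18a2, the synthesis genes Th, Dbh, Ddc and Gch1, the transcription factor gene Phox2a, and the breakdown genes Maoa and Maob. Their probe sets were those that the array annotation assigns to the gene alone, 18 in all, and for each gene 1 set was chosen by its mean level, the highest, on these arrays. The 10 genes were selected on earlier results of the same arrays, so their levels and their differences between nuclei are given as a description with no test. Their age differences were tested, but whether age also had a part in the selection was not stated. The question was whether the transporters Slc6a2 and Slc6a4 went with the synthesis genes. RNA came from male C57BL/6J mice of no stated genetic alteration or treatment. Tissue of 3 auditory nuclei was taken: the lateral superior olive (LSO), the medial trapezoid body nucleus (MNTB) and the ventral cochlear nucleus (VCN), each taken with forceps from brain slices of 200 µm at postnatal day 3 (P3) and at postnatal day 14 (P14). Each of the 6 groups was 1 array, with tissue pooled from 6 animals at P3 or 3 at P14, so no group had a replicate and the spread between animals was not measured.

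Noradrenaline is made from tyrosine by tyrosine hydroxylase (Th), aromatic amino acid decarboxylase (Ddc) and dopamine beta-hydroxylase (Dbh). Serotonin is made from tryptophan by tryptophan hydroxylase (Tph2 in brain) and the same decarboxylase, and both hydroxylases need tetrahydrobiopterin, whose synthesis starts with Gch1. The vesicular transporter Slc18a2 loads all of these amines, Slc6a2 takes noradrenaline and Slc6a4 takes serotonin back up, and the mitochondrial oxidases Maoa and Maob degrade them. Phox2a is a homeodomain factor of noradrenergic neurons and of several cranial motor nuclei. Cell bodies that make noradrenaline or serotonin form small groups in pons and raphe, from which axons reach the auditory nuclei, whereas the LSO region also holds cholinergic olivocochlear neurons.

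The array medians lay between 6.27 and 6.31 log2 units. The 3 sets of a control that is not added to the samples (TrpnX) read 2.84 to 4.42, and a value in or below that range is treated as not above background and called within background. Of the listed markers of the nuclei, Slc17a7, Atoh7, Slc17a6, Pvalb and Calb2 were highest in VCN at both ages, and En1, Otp, Esrrb and Slc6a5 in MNTB. Egr2 was highest in VCN at P3 only. At P3 Slc17a7 was near background, at 4.83 in VCN against 4.14 in LSO and 3.93 in MNTB. The list was chosen with earlier results of these arrays known, so this is no independent check of the labels. The VCN array of P14 stood apart in Ttr, the choroid plexus transthyretin gene, at 12.58 against 6.61 to 6.93 on the other 5, and the age differences of the 8 genes tested are therefore also given without it. With nucleus in the model, leaving out that array takes VCN out of the age difference, which then rests on LSO and MNTB. Pool size went with age, so pool size and age cannot be told apart. In dissected tissue a gene in fewer cells and a gene with less RNA per cell cannot be told apart either.

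Promoter sequence is shown for 4 genes that carry the comparison of each transporter with synthesis, namely Th and Dbh for noradrenaline, and Slc6a4 with Tph2 for serotonin. The 250 bases before the transcription start are given 5′ to 3′ on the gene's strand, from RefSeq's table on GRCm38.p6. That table had 8 of the 10 genes, not Slc6a2 or Maob. Capitals mark TGACG, the core of the cyclic AMP response element, and ATTA, the core of many homeodomain sites, each on either strand (CGTCA and TAAT). The Th window is chr7:142899996-142900245, minus strand, that of Dbh is chr2:27165257-27165506, plus strand, that of Slc6a4 is chr11:76998347-76998596, plus strand, and that of Tph2 is chr10:115185023-115185272, minus strand.
Th: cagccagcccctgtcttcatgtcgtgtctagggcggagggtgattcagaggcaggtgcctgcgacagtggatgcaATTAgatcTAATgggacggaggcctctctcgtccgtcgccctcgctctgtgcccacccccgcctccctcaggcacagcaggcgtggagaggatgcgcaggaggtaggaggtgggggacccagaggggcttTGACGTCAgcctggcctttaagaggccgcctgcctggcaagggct
Dbh: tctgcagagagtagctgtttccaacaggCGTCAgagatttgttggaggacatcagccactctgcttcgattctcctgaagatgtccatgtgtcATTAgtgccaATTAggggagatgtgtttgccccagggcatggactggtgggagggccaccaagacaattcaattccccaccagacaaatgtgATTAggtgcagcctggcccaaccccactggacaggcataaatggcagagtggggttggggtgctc
Slc6a4: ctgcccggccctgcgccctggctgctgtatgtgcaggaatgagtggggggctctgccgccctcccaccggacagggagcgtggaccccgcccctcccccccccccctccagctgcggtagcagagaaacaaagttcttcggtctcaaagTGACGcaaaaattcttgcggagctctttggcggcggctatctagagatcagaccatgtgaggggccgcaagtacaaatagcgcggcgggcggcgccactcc
Tph2: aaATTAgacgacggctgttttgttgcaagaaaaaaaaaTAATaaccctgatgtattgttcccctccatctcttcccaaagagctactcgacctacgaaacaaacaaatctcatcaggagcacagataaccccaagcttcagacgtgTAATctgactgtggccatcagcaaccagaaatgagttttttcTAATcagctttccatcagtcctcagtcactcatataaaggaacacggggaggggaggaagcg
The full palindrome TGACGTCA, which holds TGACG on both strands, was found at 45 bases before the start of Th, and of all 32851 promoters 1.55% held it. The Dbh window held ATTA at 157, 147 and 65 bases before the start and CGTCA at 222. Slc6a4 held TGACG at 101 bases and no ATTA, while Tph2 held 4 matches of ATTA or TAAT and no TGACG. Of all promoters, 17.8% held TGACG and 54.9% held ATTA on either strand, so a match of ATTA is common. These are matches of letters and not measured sites.

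The noradrenaline transporter gene Slc6a2 was high in LSO and low elsewhere at both ages. In VCN, LSO and MNTB it read 5.16, 10.59 and 5.23 at P3, and 5.41, 11.30 and 4.92 at P14. The LSO arrays thus stood 5.36 and 5.90 log2 units above the higher of the other nuclei. By the smaller of these steps, Slc6a2 ranked at 1 among all 18193 genes. Its other 3 probe sets also had LSO highest, above both other nuclei by 1.04 to 4.38 at P3 and by 1.28 to 5.53 at P14. The order of VCN and MNTB differed between the sets. VCN and MNTB, at 4.92 to 5.41, were above the background range on the chosen probe set.

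Th, which encodes the enzyme that sets the rate of catecholamine synthesis, was also highest in LSO. In VCN, LSO and MNTB it read 4.65, 6.11 and 4.31 at P3, and 4.46, 6.55 and 4.52 at P14. LSO lay 1.46 and 2.02 log2 units above the higher other nucleus, and VCN and MNTB lay at or just above background. Phox2a had values of 4.39, 6.58 and 4.85 at P3 and of 4.40, 5.93 and 4.73 at P14 in VCN, LSO and MNTB. Its LSO arrays were higher by 1.73 and 1.20. Because both VCN arrays were within the background range, LSO exceeded VCN by at least 1.78 on average.

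Dbh, which turns dopamine into noradrenaline, depended on the probe set. The set of highest mean, 1447592_at, read 6.05, 6.44 and 6.05 in VCN, LSO and MNTB at P3 and 5.89, 6.34 and 6.05 at P14, a range of 0.54 log2 units. The set 1450670_at read 3.68, 6.13 and 3.50 at P3 and 3.49, 7.31 and 3.55 at P14. On that set VCN and MNTB lay within background at both ages, and LSO was above them by at least 2.25 on average. The set 1459848_x_at, whose name marks probes that can match other transcripts, read 5.0, 6.47 and 5.03 at P3 and 4.87, 7.26 and 5.97 at P14. All 3 sets had LSO highest at both ages, but only the differences of 1459848_x_at and 1450670_at exceeded 1 log2 unit.

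**Figure D1:**
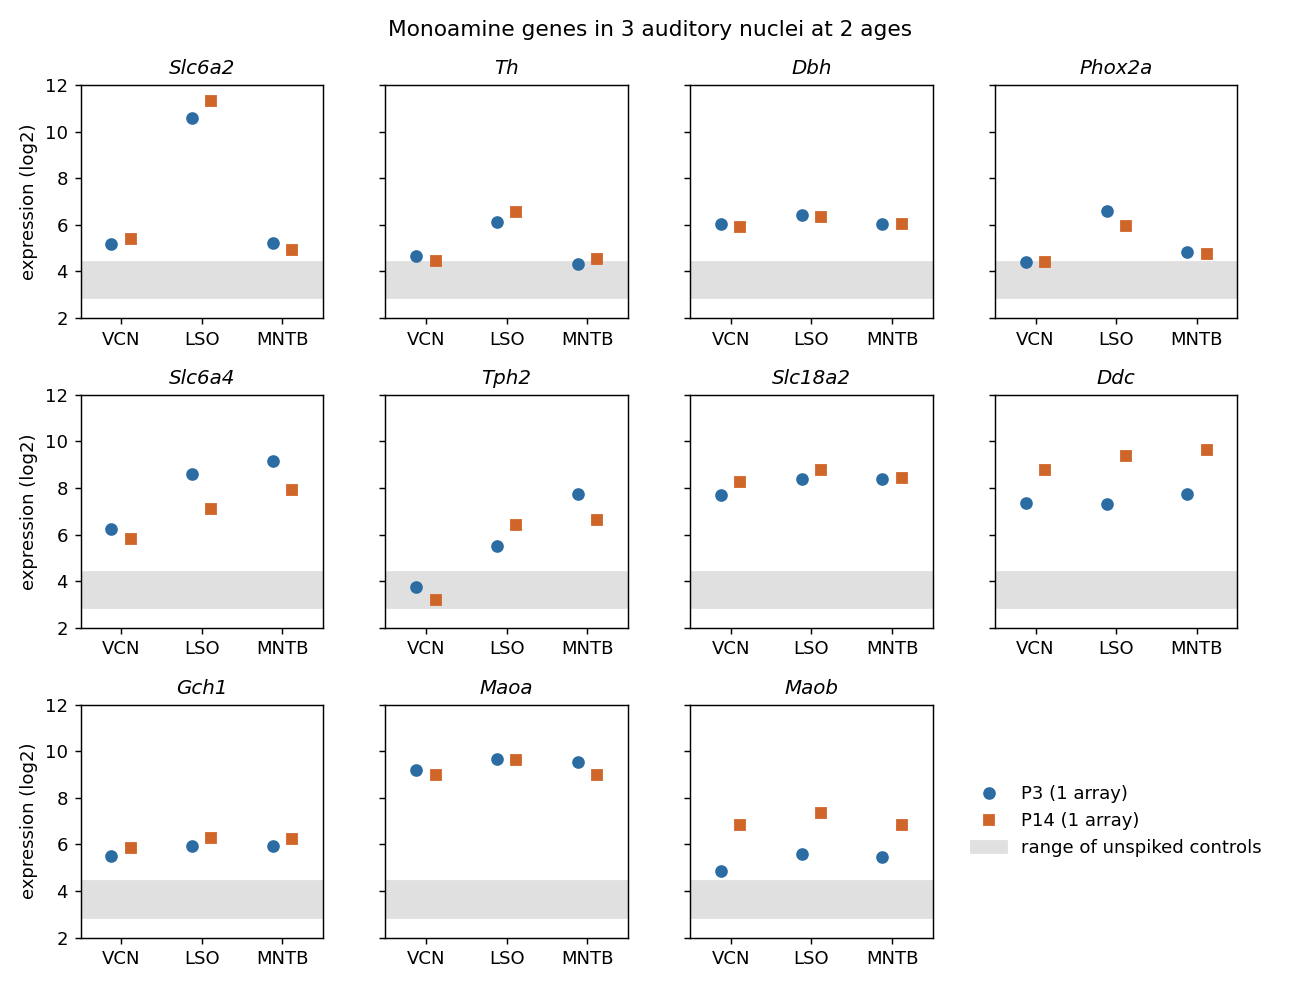
Expression (log2) of the 10 genes and of Tph2 in VCN, LSO and MNTB, with 1 point per array, circles for P3 and squares for P14; the grey band is the range of the unspiked controls, 2.84 to 4.42. Slc6a2 stood at 10.59 and 11.30 in LSO and at 4.92 to 5.41 elsewhere, and Slc6a4 was lowest in VCN at both ages.

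**Figure D2:**
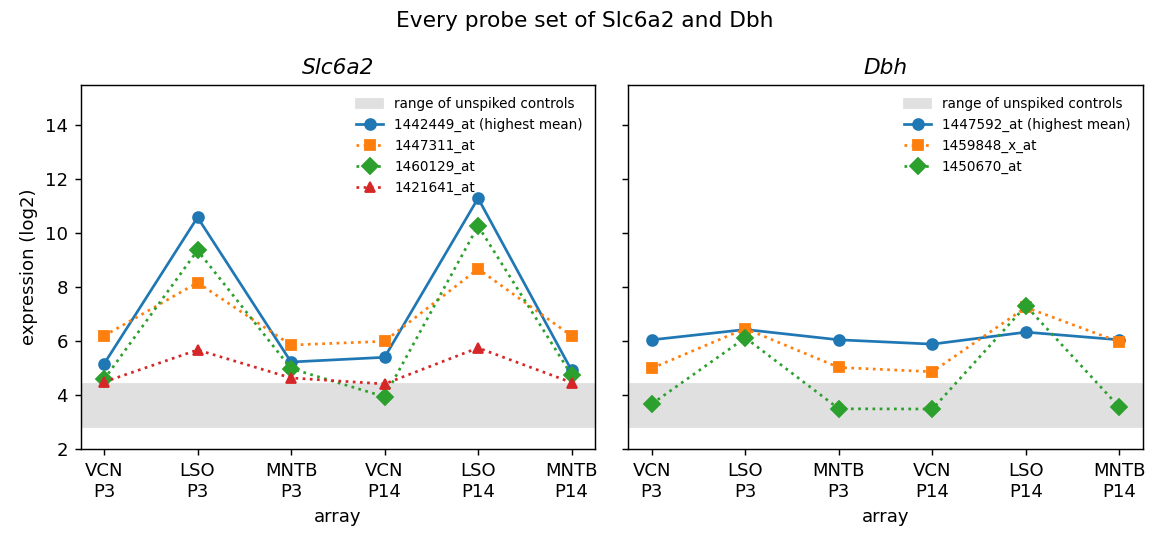
Expression (log2) of every probe set of Slc6a2 (left) and Dbh (right) on the 6 arrays; lines only join the points of a probe set, solid for the set of highest mean, and the grey band is the range of the unspiked controls. All sets peaked in LSO, and the set of highest mean of Dbh varied by 0.54 log2 units.

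A step of at least 1 log2 unit above both other nuclei at both ages was met in LSO by Slc6a2, Th and Phox2a, 3 of the 10 genes, and by 0.225% of all 18193 genes. The genes were proposed with such differences in view, so nothing is read from that share. Over the 6 arrays the Pearson correlation of Slc6a2 was 0.99 with Th, 0.93 with Phox2a, 0.91 with the highest-mean set of Dbh and 0.99 with 1450670_at. Spearman's rho was 0.54, 0.66, 0.52 and 0.49 for these pairs. The high Pearson values rest on the 2 LSO arrays, and the 4 others held little variation to order. With each value centred on the mean of its age, Pearson's r was 0.99, 0.95, 0.95 and 0.99.

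The genes of the shared steps did not have the LSO step of Slc6a2. Correlations of Slc6a2 over the 6 arrays were 0.02 with Ddc, 0.42 with Gch1, 0.57 with Slc18a2 and 0.17 with Tph2. With values centred on their age they were -0.06, 0.52, 0.64 and 0.18. For the breakdown genes Maoa and Maob, r with Slc6a2 was 0.76 and 0.29, and 0.88 and 0.78 when centred. Slc18a2 read 7.69, 8.38 and 8.39 in VCN, LSO and MNTB at P3 and 8.28, 8.76 and 8.43 at P14. MNTB was above LSO by 0.01 at P3, and LSO was above MNTB by 0.33 at P14. Of 8 listed markers of mast cells and platelets, which also store amines, 3 lay within background on all 6 arrays. The summed level of all 8 was 8.40 to 8.57 at P3 and 8.52 to 8.75 at P14. Of the 3 tested for age, the platelet factor gene Pf4 rose by 1.86, Itga2b fell by 0.39 and Kit (-0.27) did not pass. Thus Th, Phox2a and, on 2 of its 3 sets, Dbh had an LSO step above 1 log2 unit at both ages as Slc6a2 did, and Ddc, Gch1 and Slc18a2 had none.

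Some listed genes of cholinergic neurons were, like Slc6a2, highest in LSO at both ages. Of the 7 listed markers of cranial motor and cholinergic neurons, 5 had a probe set and 4 of these stood at least 1 log2 unit higher in LSO at both ages. The summed level of the list was 12.49 in LSO against 7.09 and 8.43 in VCN and MNTB at P3, and 11.87 against 7.34 and 7.97 at P14. Slc18a3, the vesicular acetylcholine transporter gene, read 9.80 and 9.88 in LSO and 4.71 to 5.46 elsewhere, and Isl1, a motor neuron factor, read 8.91 and 7.10 against 4.13 to 4.40. With age the likeness did not hold for all: in LSO Slc6a2 changed by 0.71, Slc5a7 by 0.21, Slc18a3 by 0.08, Prph by -0.99 and Isl1 by -1.81. The set of Chat, which encodes the enzyme that makes acetylcholine, lay within background on all 6 arrays at 3.68 to 4.03. Calca was not analysed here. The part of these cells in the level of Slc6a2 was not tested.

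Among 3443 genes that passed the filter on low values and ranged over at least 1 log2 unit, the 5 with the pattern most like that of Slc6a2 over the 6 arrays were Layn (r = 0.99), Slc18a3 (0.99), Calcb (0.99), Ahnak2 (0.98) and Slc5a7 (0.97). Of the 3443, 0.523% had r above 0.9. Th, with r = 0.99, was below the filter and so was no candidate. Slc18a3 and Calcb, like Slc6a2 itself, passed it only through their LSO arrays, as all their other arrays read below 5.57. The filter thus let in genes high in LSO alone, and nothing is read from this ranking. Slc5a7 encodes the choline transporter, and Calcb a calcitonin gene-related peptide, which read 9.34 and 8.78 in LSO and 3.52 to 4.21, within background, elsewhere.

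The serotonin transporter gene Slc6a4 had another order, with VCN lowest, LSO between and MNTB highest at both ages. It read 6.26, 8.58 and 9.17 in VCN, LSO and MNTB at P3, and 5.83, 7.12 and 7.92 at P14. LSO exceeded VCN by 2.32 at P3 and by 1.29 at P14, and MNTB exceeded LSO by 0.59 and 0.80. Slc6a4 was the only one of the 10 genes that lay in VCN at least 1 log2 unit below both other nuclei at both ages, which 0.104% of all genes did, and again nothing is read from this. Over the 6 arrays its correlation with Slc6a2 was 0.17.

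Tph2, the hydroxylase gene of serotonin neurons, had the same order of nuclei as Slc6a4 on 1 probe set. It read 3.76, 5.50 and 7.75 in VCN, LSO and MNTB at P3 and 3.20, 6.43 and 6.61 at P14. Both VCN arrays were within background, so that MNTB exceeded VCN by at least 2.71 on average. MNTB exceeded LSO by 2.24 at P3 and by 0.19 at P14. Slc6a4 and Tph2 had r = 0.86 and rho = 0.83 over the 6 arrays, and r = 0.92 with values centred on their age. Fev, the transcription factor gene of serotonin neurons, was not analysed here.

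For the genes that both transmitters share, the correlation with Slc6a4 over the 6 arrays as they stood was -0.22 for Ddc, 0.33 for Gch1 and 0.40 for Slc18a2. Within ages these were 0.74, 0.93 and 0.82, and Spearman's rho within ages was 0.66, 0.55 and 0.60. All 3 genes were lower in VCN than in MNTB at both ages, but Ddc at P3 was lowest in LSO, at 7.33 against 7.35 in VCN. Those nucleus differences were small: MNTB minus VCN was 0.39 and 0.85 for Ddc at P3 and P14, 0.41 and 0.35 for Gch1, and 0.70 and 0.15 for Slc18a2. Slc6a4 had r = 0.09 with Th, 0.43 with the highest-mean set of Dbh and 0.47 with Phox2a. Its r with Maoa and Maob was 0.56 and -0.22, and 0.46 and 0.67 within ages.

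The 5 genes most like Slc6a4 over the 6 arrays were Otp (r = 0.98), Nxph1 (0.98), Gask1b (0.98), Gata2 (0.97) and the noncoding RNA gene Gm11627 (0.97), with 0.755% of the 3443 above 0.9. Otp and Gm11627 passed the filter on low values only through LSO and MNTB, as their VCN arrays read below 5.57. Tph2 and En1 were below the filter and so were no candidates. Nothing is read from this ranking either. Otp, a homeobox gene, read 4.71, 8.22 and 9.72 in VCN, LSO and MNTB at P3 and 4.88, 6.04 and 7.74 at P14. Gata3, a factor of serotonin neurons and of some inhibitory neurons, was within background in VCN at 3.84 and 3.96 and read 6.76 to 7.75 in LSO and MNTB. En1, on the fixed lists both as a factor of amine lineages and as an auditory marker, read 3.21 and 2.93 in VCN and 5.82 to 7.10 in LSO and MNTB. Lmx1b, needed for serotonin neurons, had no such order, at 6.70, 6.17 and 6.16 at P3 and 5.04, 5.78 and 5.49 at P14. En2, also on the list of lineage factors, was highest in VCN, at 5.90, 4.35 and 3.83 at P3 and 5.61, 5.10 and 5.22 at P14. Whether Slc6a4 and Tph2 came from the same cells was not tested.

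**Figure D3:**
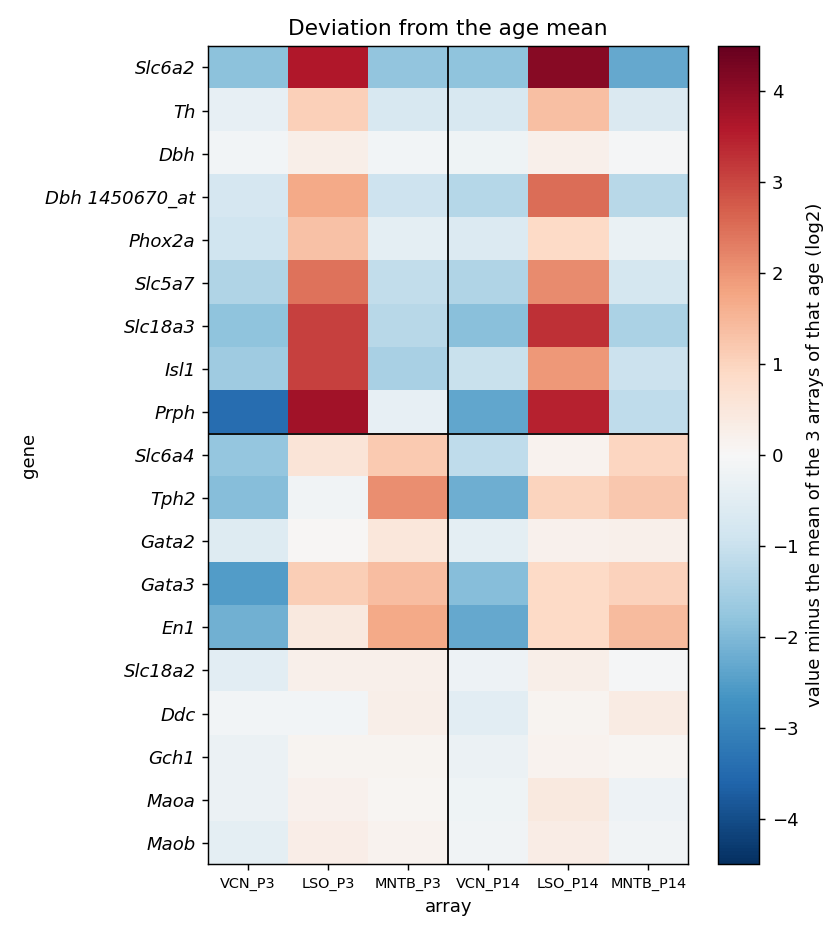
Deviation of each value from the mean of the 3 arrays of its age (log2, colour) for the 10 genes, a further Dbh probe set (1450670_at), Tph2 and further listed genes (rows) on the 6 arrays (columns). The further listed genes are only those that had the pattern of their block. Chat, Lmx1b and En2 are among those left out, so the blocks themselves are no result. The upper block is high in LSO, with Slc6a2 at 3.60 and 4.09 and the first Dbh set only 0.38 and 0.44 apart between nuclei; the middle block is low in VCN, with Slc6a4 at -1.75 and -1.13, and in the lower block the nuclei of an age were at most 0.85 apart.

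Age differences were tested with limma over all 12958 genes that passed the filter on low values, with nucleus in the model. Because the genes were selected on earlier results of the same arrays, age may have had a part in their choice. If it had, the p-values given for them are too low and their share of calls is no fair comparison. Ddc and Maob were higher at P14 and Slc6a4 was lower, while Slc6a2, Slc18a2, Dbh, Gch1 and Maoa did not pass. The 3 of 8 tested genes (37.5%) compare with 41.0% of all genes, 23.4% higher and 17.7% lower, so the share of these genes that changed was near that of the arrays. The median difference of the 8 was 0.27, against 0.03 over all genes. Th and Phox2a, at means of 5.10 and 5.15, were below the filter of 5.57 and were not tested, and Gch1 at 5.95 was the lowest that was. With no filter, neither Th (adjusted p = 0.514 in limma) nor Phox2a (0.304) passed.

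Ddc, the decarboxylase common to all 3 amines, read 7.35, 7.33 and 7.73 in VCN, LSO and MNTB at P3 and 8.78, 9.36 and 9.63 at P14. Every P14 array was above every P3 array. The rise was 1.79 ± 0.15 log2 units (SE, 3 nuclei, limma adjusted p = 0.000714), and 1.96 without the VCN array of P14. A second probe set lay within background on all 6 arrays, and with the median of both sets the rise was 0.90.

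Maob, the oxidase known from astrocytes and serotonin neurons, read 4.86, 5.60 and 5.48 at P3 and 6.82, 7.33 and 6.83 at P14 in VCN, LSO and MNTB. The ages did not overlap. It rose by 1.68 ± 0.16 (SE, 3 nuclei, limma adjusted p = 0.000968), and by 1.54 without the VCN array of P14. Maoa read 9.18, 9.65 and 9.54 at P3 and 8.98, 9.63 and 8.96 at P14, so the ages overlapped, with a difference of -0.26 ± 0.13 (limma adjusted p = 0.161). Its second probe set gave -0.33, -0.11 and -0.57 in the 3 nuclei.

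Markers of other cell types also differed between the ages, named here after their values were seen. The counts below stand against 41.0% of all genes tested that passed, 23.4% higher and 17.7% lower at P14. Of 9 endothelial and pericyte markers 8 rose and none fell in limma, with a summed level of 11.89 to 12.17 at P3 and 12.86 to 12.95 at P14. Of 7 astrocyte markers 4 rose and 2 fell, the latter being Aldh1l1 (-0.83) and Slc1a3 (-0.81), and the summed level was 14.36 to 14.52 at P3 and 14.77 to 14.92 at P14. A second set of Aldh1l1 gave 0.05. Of 10 choroid plexus and meningeal markers 6 were tested and 4 rose, among them the collagen genes Col3a1 by 3.16 and Col1a1 by 2.88, with a summed level of 8.79 to 8.94 at P3 and 10.22 to 12.90 at P14. Col3a1 rose by 0.82 on its second set. Of 5 microglial markers 4 rose, with a summed level of 10.93 to 11.41 at P3 and 11.59 to 11.87 at P14. Of 4 neuronal markers Rbfox3 (-1.12), Syt1 (-1.03) and Tubb3 (-0.37) fell and Snap25 rose by 0.28, and their summed level was 14.07 to 14.20 at P3 and 13.90 to 14.08 at P14. The part of these cell types in the age differences of Ddc, Maob and Slc6a4 was not tested.

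Slc6a4 was lower at P14 in each nucleus, with differences of -0.43 in VCN, -1.47 in LSO and -1.25 in MNTB. The fitted difference was -1.05 ± 0.21 (SE, 3 nuclei, limma adjusted p = 0.0115), and -1.36 without the VCN array of P14. The call was lost without either LSO array (-0.84, adjusted p = 0.0599 and 0.0568 in limma) or either MNTB array (-0.95, adjusted p = 0.0620 and 0.0607), and without nucleus in the model (adjusted p = 0.347). Tph2, below the filter and not tested, had differences of 0.92 in LSO and -1.13 in MNTB, and both of its VCN values were within background.

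Gch1, the first enzyme of cofactor synthesis, read 5.52, 5.92 and 5.92 in VCN, LSO and MNTB at P3 and 5.87, 6.27 and 6.22 at P14. Its differences of 0.29 to 0.35 did not pass (0.33 ± 0.12, limma adjusted p = 0.0716), but passed when the arrays were quantile normalized again (0.0457) or without an intensity trend (0.0393). Its second probe set lay within background on all arrays. Slc18a2 had differences of 0.59, 0.38 and 0.04 in VCN, LSO and MNTB (0.34 ± 0.14, limma adjusted p = 0.102). Slc6a2 had 0.25, 0.71 and -0.31 (0.21 ± 0.21, adjusted p = 0.439 in limma), and Dbh -0.16, -0.10 and 0.00 (adjusted p = 0.602). The other Dbh sets were higher at P14 in LSO, by 1.18 on 1450670_at and by 0.79 on 1459848_x_at, and with the median of the sets the direction turned (0.55, limma adjusted p = 0.100). Without the VCN array of P14 the difference of Slc18a2 was 0.21 (limma adjusted p = 0.305), that of Slc6a2 0.20, that of Dbh -0.049, that of Gch1 0.32 and that of Maoa -0.30, and none passed. Slc6a2 was at -0.032 without either LSO array.

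**Figure D4:**
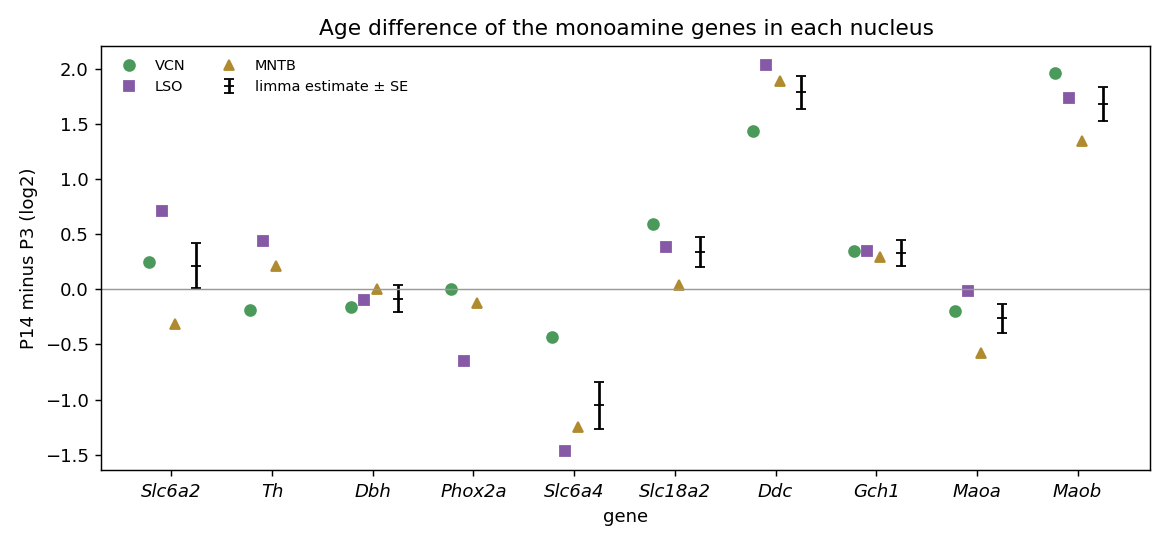
Difference P14 minus P3 (log2) of each gene in VCN, LSO and MNTB (1 array at each age), with the limma estimate and its standard error in black for the 8 genes tested. Ddc and Maob lay above 1 in all nuclei, Slc6a4 lay below 0 in all nuclei, and Slc6a2 and Th had nuclei on both sides of 0.

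Other genes of the monoamine pathways were counted from lists of 68 entries, of which 51 had a probe set and 32 were tested. For age 4 were higher and 8 lower, 37.5% against the 41.0% of all genes, with a median difference of -0.19. Of 6 cofactor genes, Qdpr, which regenerates tetrahydrobiopterin, rose by 1.07 and Pcbd1, which recycles it, fell by 1.24. A second set of Qdpr gave 0.33. Of 8 genes of other synthesis and metabolism, 3 rose and 2 fell. The aldehyde dehydrogenase gene Aldh1a1 rose by 3.76, Sult1a1, a sulfotransferase gene, by 1.12 and Cyb561, which supplies reducing power to Dbh in vesicles, by 0.57. Pnmt, the enzyme that makes adrenaline, fell by 1.34 on its chosen set, and its 3 sets ranged from -1.34 to 0.07. Aldh2, a mitochondrial aldehyde dehydrogenase gene, fell by 0.45. Leaving out each array in turn, Cyb561 lost its call in 2 of 6 fits (limma adjusted p of up to 0.0531) and Aldh2 in 2 (0.0726). These 6 fits go in pairs, because leaving out either array of a nucleus takes that nucleus out of the age difference.

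Of 8 serotonin receptor genes tested, 3 fell and none rose, 37.5% called against 41.0% of all genes, a share near the background. They were Htr7 at -0.81, the ion channel subunit gene Htr3a at -0.72 and Htr4 at -0.46. Second sets of Htr7 and Htr4 gave -0.52 and -0.25. Leaving out each array in turn, Htr7 passed in all 6 fits, Htr3a in 2 (limma adjusted p of up to 0.174) and Htr4 in 0 (0.195). None of the 2 adrenergic and 2 dopamine receptor genes tested passed. Among 5 lineage factors tested, Insm1 fell by 1.40 and Lmx1b by 0.91, each also in 4 of those 6 fits. Their second sets gave -0.72 and -0.40. The plasma membrane monoamine transporter gene Slc29a4 read 6.80 to 7.83 and did not pass (-0.34, limma adjusted p = 0.0641). Slc6a3, the dopamine transporter gene, lay within background on all 6 arrays at 3.41 to 3.87.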

How the data were processed

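The authors deposited 1 log2 value per probe set and array, made with RMA per the submitters' processing notes, which name no version. Per the labels' protocols, 20 ng of RNA was amplified with a Nugen kit. Of 45101 probe sets, 34945 named 1 gene in the platform annotation. A gene was represented by its set of highest mean, passing over _x_at sets if it had others, and tested where that mean reached the 40th percentile of all sets (5.57). Age was fitted with limma 3.58.1 in R 4.3.3 over all 6 arrays, with nucleus as an additive term and an intensity trend, two-sided, with Benjamini-Hochberg adjustment over 12958 genes and a threshold of 0.05. The fit had 2 residual degrees of freedom, and moderation added 3.95. The p-values measure repetition over nuclei, not over animals. The members and lists were chosen with earlier results of these data known, so the age p-values of their genes are no independent test. Named are all 10 genes, up to 4 passing genes per list, fixed extra genes, and for each of 2 transporters the 5 genes of highest Pearson r. Bounds use the 25th percentile (4.47) as floor. A summed level is the log2 of the summed linear values. The fit was tested on 1 draw of simulated data in which 200 of 12958 genes changed. It recovered 63% of changes of 1 log2 unit and 96% of changes of 2, and 6 of 165 calls were false. Changes of 1 log2 unit or less can thus be missed. Promoter windows are RefSeq's, on GRCm38.p6. No scan date or batch was known, so none was tested. The number of arrays limits the precision.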

Additional observations from a re-analysis of the deposited data

Results flagged for a closer look

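The age difference of 2 genes had opposite signs in LSO and MNTB, by at least 0.25 log2 units each way and with 1 array at each age. Slc6a2 differed by 0.71 in LSO and by -0.31 in MNTB. On its other 3 probe sets the LSO differences were 0.51, 0.91 and 0.08 and the MNTB differences 0.34, -0.24 and -0.17. Tph2 differed by 0.92 in LSO and by -1.13 in MNTB. Neither difference between the nuclei was tested, since no array is left to measure the spread.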

How the results depend on the processing

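Of the 8 genes tested for age, 3 passed, and 2 to 4 did so under the alternatives, over 5 to 10 genes tested. Ddc and Maob passed in every alternative that tested them, and kept their direction. The pathway count of 12 was 7 with the filter at the 60th percentile, where 17 of those genes were tested. With 1 array left out it ranged from 7 to 13, the lowest without either MNTB array. The count over all genes, 5317, ranged from 3142 to 4710 with 1 array left out, with 3142 and 3176 without the MNTB array of P3 and of P14, fits that leave 1 residual degree of freedom. Under the other alternatives it was 4528 to 5355. Dbh ranged over 0.54 log2 units on the arrays, or 2.39 when its probe sets were reduced to their median. Taking the median over its sets, the age difference of Dbh turned from -0.086 to 0.55, and that of Slc6a2, 0.21, ranged from -0.032 to 0.48 with 1 array left out, negative without either LSO array; none of these passed, and the cause was not tested. The nucleus term already matches the ages within a nucleus. No paired analysis was possible because the labels give no replicate numbers to pair by beyond that. Differences between nuclei were not tested, since the genes were chosen with them in view.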

Other observations

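Further listed genes differed between nuclei, chosen after their values were seen and given with no test. Htr3a, a subunit of the serotonin-gated ion channel, read 5.53, 8.89 and 7.91 in VCN, LSO and MNTB at P3 and 5.40, 8.0 and 6.76 at P14, with LSO highest at both ages. Pcbd1, a cofactor recycling gene, was also highest in LSO, at 8.02, 9.05 and 8.43 at P3 and 6.44, 8.30 and 7.06 at P14. Htr2c, a serotonin receptor gene, read 5.80 on the VCN array of P14 and 8.20 to 8.68 on the other 5. That array was the one with Ttr at 12.58, and whether the values of Htr2c and Ttr are linked was not tested.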
